A study of Gallus gallus with 12 samples.

Results

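From the 11207 genes in the deposited table of hypothalamic microglia, 5 were chosen by a rule on counts, spread and group means. They differed widely between replicate pools of chicks that had not been heat-conditioned and little between pools of chicks that had. The limits on spread alone were met by 9 of the 3899 genes open to the choice. The 5 were chosen by measured values of these same libraries. For each gene the level in CPM (the count scaled to the total of its library) was compared within a group as the ratio of the highest to the lowest of 3 pools, after adding 5 CPM to both. Members had a ratio of 3 or more in both non-conditioned groups and under 2 in both conditioned groups. They also had an LPS over saline log2 ratio of group means (with 5 CPM added) under 0.8 in size without conditioning and under 0.5 with it. The conditioned over non-conditioned log2 ratio had to be above -0.5 with saline or with LPS. Eligible genes had 150 or more counts over the 12 libraries and were not among the 100 most abundant, which left 3899. The pattern of spread and the limits on group differences are therefore properties of the choice, and no test of them is given.

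Microglia are the resident macrophages of the brain. They sense injury and microbial products and answer with cytokines and phagocytosis. The anterior hypothalamus holds the centres that regulate body temperature, and LPS (lipopolysaccharide, a component of the outer membrane of Gram-negative bacteria) is a standard trigger of the innate immune response and of fever. In chicks, brief warmth shortly after hatching is used to set a lasting change in heat tolerance, called heat conditioning.

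The study crossed heat conditioning with an injection into the third ventricle, in 4 groups of 3 libraries from 11-day-old chicks (Gallus gallus). The LPS conditioned group was kept at 39°C for 24 h on day 3 and received LPS on day 10. The saline conditioned group had the same heat and received saline, the LPS non-conditioned group had LPS without the heat, and the saline non-conditioned group had saline without it. Each library came from microglia sorted by FACS from the pooled hypothalamic cells of 10 to 12 chicks, taken 24 h after injection, so a value is a mean over birds and the spread described here is between pools. Of the chicks' strain and sex and the markers of the sort, the sources used here say nothing. In bulk libraries, fewer cells of a type and less RNA per cell cannot be told apart.

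The table lists genes by Ensembl identifier alone, and 0 of these could be matched to a symbol in the chicken reference used (RefSeq, assembly GRCg7b). What the 5 genes encode, their position in the genome and their sequence are therefore not given here, and neither the microglial label nor the presence of other cell types was checked against markers. The genes were ENSGALG00000011457.5, ENSGALG00000038421.2, ENSGALG00000031845.2, ENSGALG00000031718.1 and ENSGALG00000002861.5, in descending order of the smaller of their ratios in the non-conditioned groups. The third of these was the only member with a lower level, averaged over both injections, after conditioning. The last 2 lay outside the rule for naming genes and were named after their values were seen.

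All 5 were genes of low or middling count. Their sums over the 12 libraries were 442, 203, 237, 366 and 163 in the order given, against a median of 402 over the 3899 eligible genes. ENSGALG00000002861.5 lay close to the minimum of 150, with fewer counts in only 4.87% of eligible genes. ENSGALG00000011457.5 was the one member above the median of eligible genes, with fewer counts in 54.2% of them. Library totals ran from 189180 to 963146 counts, so that 1 count was worth 1.04 to 5.29 CPM. The depth of the pools within a group differed 1.12 times in the LPS conditioned, 4.08 times in the saline conditioned, 2.05 times in the LPS non-conditioned and 2.70 times in the saline non-conditioned group. Pools 1 to 3 held 468415, 504861 and 451683 counts in the LPS conditioned and 589900, 236219 and 963146 in the saline conditioned group. Without conditioning they held 317724, 615505 and 300739 counts with LPS and 315422, 189180 and 510210 with saline.

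**Figure D1:**
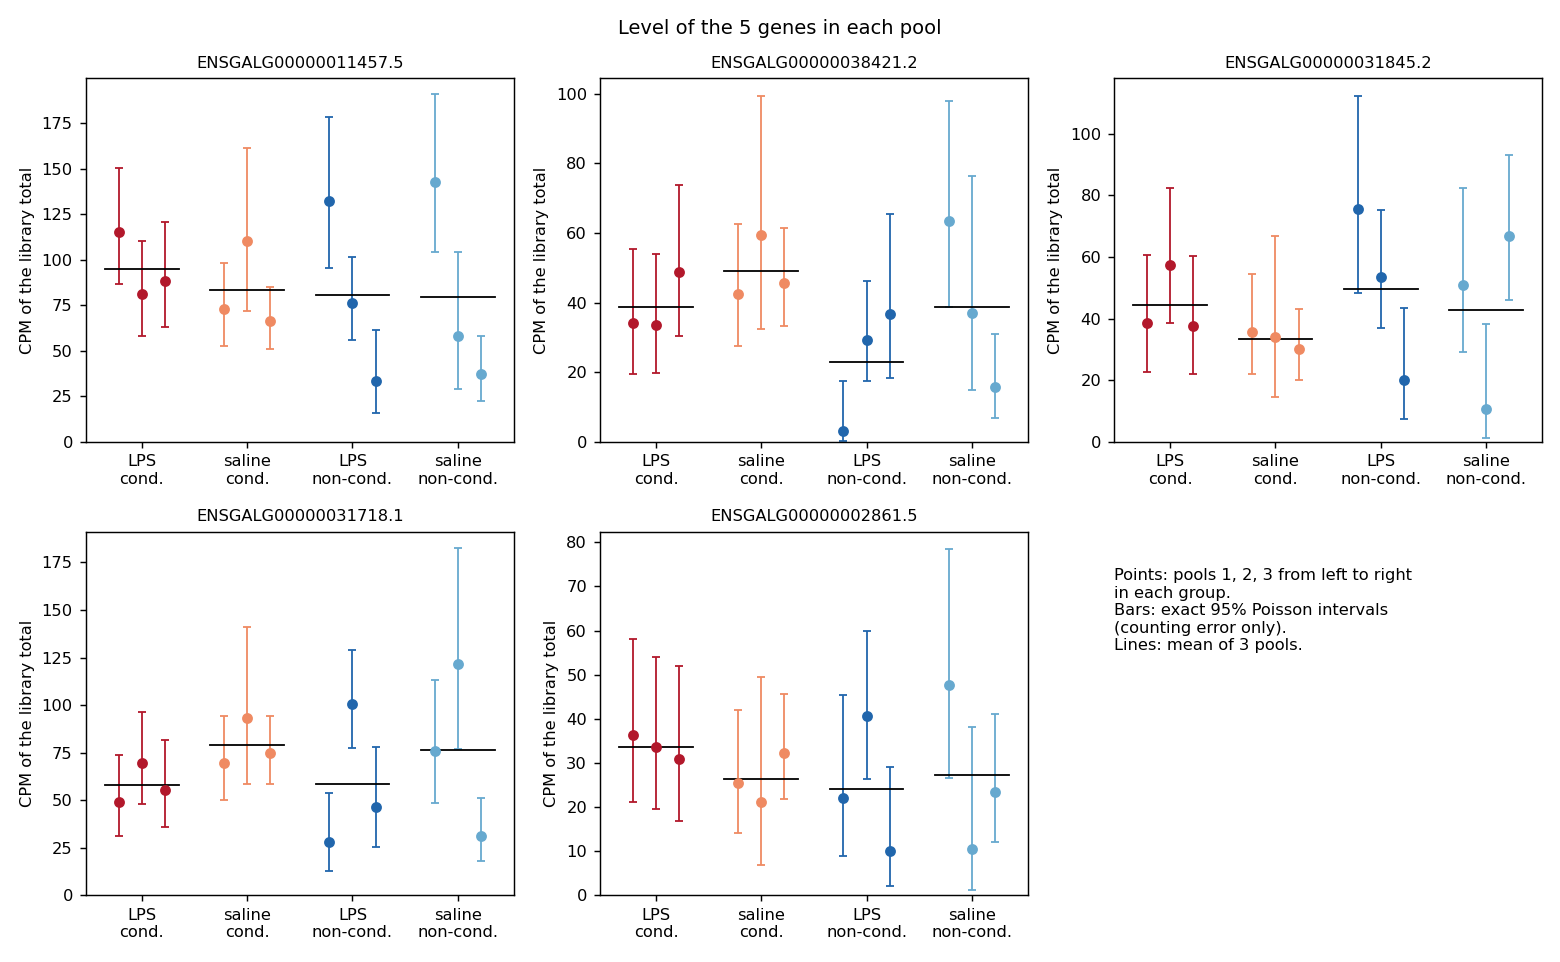
Level of each of the 5 genes in every pool, in CPM of the library total, with groups from left to right LPS conditioned, saline conditioned, LPS non-conditioned and saline non-conditioned. Points are pools 1 to 3, bars exact 95% Poisson intervals (counting error only) and lines group means; points lie close together in both conditioned groups and apart in both non-conditioned groups, as the choice of genes required.

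ENSGALG00000011457.5 was the most abundant member, at a mean of 84.5 CPM over the 12 libraries. Pools 1 to 3 held 115, 81.2 and 88.6 CPM in the LPS conditioned group (54, 41 and 40 counts) and 72.9, 110 and 66.4 CPM in the saline conditioned group (43, 26 and 64 counts). In non-conditioned chicks they held 132, 76.4 and 33.3 CPM with LPS (42, 47 and 10 counts) and 143, 58.1 and 37.2 CPM with saline (45, 11 and 19 counts). In both non-conditioned groups pool 1 was highest and pool 3 lowest, and all 6 conditioned pools lay inside the non-conditioned range of the same injection. The ratio of highest to lowest pool was 1.40 and 1.61 in the conditioned groups (LPS, then saline) and 3.59 and 3.50 in the non-conditioned groups. Group means were 95 ± 17.9 and 83.1 ± 23.5 CPM with conditioning, and 80.6 ± 49.6 and 79.4 ± 55.8 CPM without it (SD, n = 3 each), so the means lay much closer than the pools of the non-conditioned groups.

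ENSGALG00000038421.2 had its extreme in a single library. The LPS conditioned pools held 34.2, 33.7 and 48.7 CPM (16, 17 and 22 counts). LPS non-conditioned pool 1 held 1 count, or 3.15 CPM, where pools 2 and 3 of that group held 18 and 11 counts, or 29.2 and 36.6 CPM. With saline, the conditioned pools held 42.4, 59.3 and 45.7 CPM (25, 14 and 44 counts), against 63.4, 37.0 and 15.7 CPM (20, 7 and 8 counts) in the non-conditioned pools. Of the conditioned pools, 2 of 3 with LPS and 3 of 3 with saline lay inside the non-conditioned range. The ratios were 1.39 and 1.36 in the conditioned groups (LPS, then saline) against 5.10 and 3.31 in the non-conditioned groups. Without LPS non-conditioned pool 1 the ratio of that group was 1.21, the lowest value reached by a member in a non-conditioned group when a library was left out. Of the 5 members it had the largest difference of means between conditioned and non-conditioned chicks after LPS, 38.8 ± 8.54 against 23 ± 17.6 CPM (SD, n = 3 each), a log2 ratio of 0.65. Without LPS non-conditioned pool 1 the mean of that group was 32.9 CPM, so the size of this difference, and its rank, rest largely on that library.

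ENSGALG00000031845.2 was low in a single pool of each non-conditioned group. Conditioned pools held 38.4, 57.4 and 37.6 CPM with LPS (18, 29 and 17 counts), and with saline 35.6, 33.9 and 30.1 CPM (21, 8 and 29 counts). It held 75.5, 53.6 and 19.95 CPM in LPS non-conditioned pools 1 to 3 (24, 33 and 6 counts) and 50.7, 10.6 and 66.6 CPM in the saline non-conditioned pools (16, 2 and 34 counts). Pool 3 was thus low after LPS and pool 2, the shallowest library of the study, after saline. Its ratios were 1.46 and 1.16 in the conditioned groups (LPS, then saline) and 3.23 and 4.6 in the non-conditioned groups. Without the low pool, the ratio was 1.37 in the LPS and 1.29 in the saline non-conditioned group. Conditioned means were 44.5 ± 11.2 and 33.2 ± 2.81 CPM, and non-conditioned means 49.7 ± 28 and 42.6 ± 28.9 CPM (SD, n = 3 each).

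ENSGALG00000031718.1 was high in a single pool of the LPS non-conditioned group. In the LPS conditioned group the pools held 49.1, 69.3 and 55.3 CPM (23, 35 and 25 counts). LPS non-conditioned pool 2 held 101 CPM (62 counts), against 28.3 and 46.6 CPM in pools 1 and 3 (9 and 14 counts). The saline conditioned pools held 69.5, 93.1 and 74.8 CPM (41, 22 and 72 counts), and the saline non-conditioned pools 76.1, 122 and 31.4 CPM (24, 23 and 16 counts). Pool 2 was highest in each of the 4 groups, and the labels link these 4 pools by a replicate number alone. Ratios were 1.37 and 1.32 in the conditioned groups (LPS, then saline) and 3.17 and 3.48 in the non-conditioned groups. Group means after LPS were 57.9 ± 10.4 CPM with and 58.5 ± 37.7 CPM without conditioning (SD, n = 3 each), and after saline they were 79.1 ± 12.4 and 76.3 ± 45.1 CPM.

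ENSGALG00000002861.5 was the least abundant member, at a mean of 27.8 CPM. Its pools held 36.3, 33.7 and 31.0 CPM in the LPS conditioned group (17, 17 and 14 counts), the narrowest spread of any member in any group, and 25.4, 21.2 and 32.2 CPM in the saline conditioned group (15, 5 and 31 counts). Among non-conditioned pools the values were 22, 40.6 and 9.98 CPM with LPS (7, 25 and 3 counts) and 47.6, 10.6 and 23.5 CPM with saline (15, 2 and 12 counts). Both low values rest on 3 counts or fewer. The ratios were 1.15 and 1.42 in the conditioned groups (LPS, then saline), and 3.05 and 3.38 in the non-conditioned groups. The ratio of 3.05 was the closest to the limit of 3 among all members. Means were 33.7 ± 2.65 and 26.3 ± 5.56 CPM with conditioning, and 24.2 ± 15.4 and 27.2 ± 18.8 CPM without it (SD, n = 3 each).

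Taken as coefficients of variation (SD over mean), the members' spread ran from 7.87% to 28.3% in the 10 combinations of gene and conditioned group, against 56.3% to 76.4% in the 10 of gene and non-conditioned group. The median over all eligible genes was 15.9% in the LPS conditioned, 18.2% in the saline conditioned, 20.5% in the LPS non-conditioned and 24.9% in the saline non-conditioned group. The members' medians were 18.9% and 18.2% in the conditioned groups (LPS, then saline), near those of eligible genes, and 63.8% and 67.8% in the non-conditioned groups. The group means moved far less than the pools. The conditioned mean was the higher in 6 of the 10 combinations of gene and injection, and 29 of the 30 conditioned values lay inside the range of the non-conditioned pools with the same injection. These differences in spread, the close means and the values inside the range follow largely from the limits of the choice. For the values inside the range, no share over all eligible genes is given.

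Counting error alone is wide at these levels. With no added CPM, the ratio of highest to lowest pool ran from 1.17 to 1.66 in conditioned groups and from 3.56 to 11.6 in non-conditioned groups. Its exact 95% interval excluded 1 in 1 of 10 conditioned and 10 of 10 non-conditioned combinations. The extreme pools were picked by their CPM and the genes by their ratios, so this is no test. The lower bound reached 2 in 1 of the 10 non-conditioned combinations, ENSGALG00000011457.5 with saline, at 3.83 (2.20 to 6.94). The widest interval was that of ENSGALG00000038421.2 with LPS, at 11.6 (1.69 to 500.2). For all 10 combinations of gene and injection, the interval of the conditioned group overlapped that of the non-conditioned group. The share of all eligible genes with such an overlap was not computed. The lowest non-conditioned pool held 3 counts or fewer in 4 of 10 combinations and under 10 counts in 7, and the lowest conditioned pool held under 10 counts in 1 of 10. This contrast is in part built into the choice, which required a wide spread without conditioning and a narrow one with it. The share over all eligible genes was not computed. The part of depth in the pattern was not tested.

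**Figure D2:**
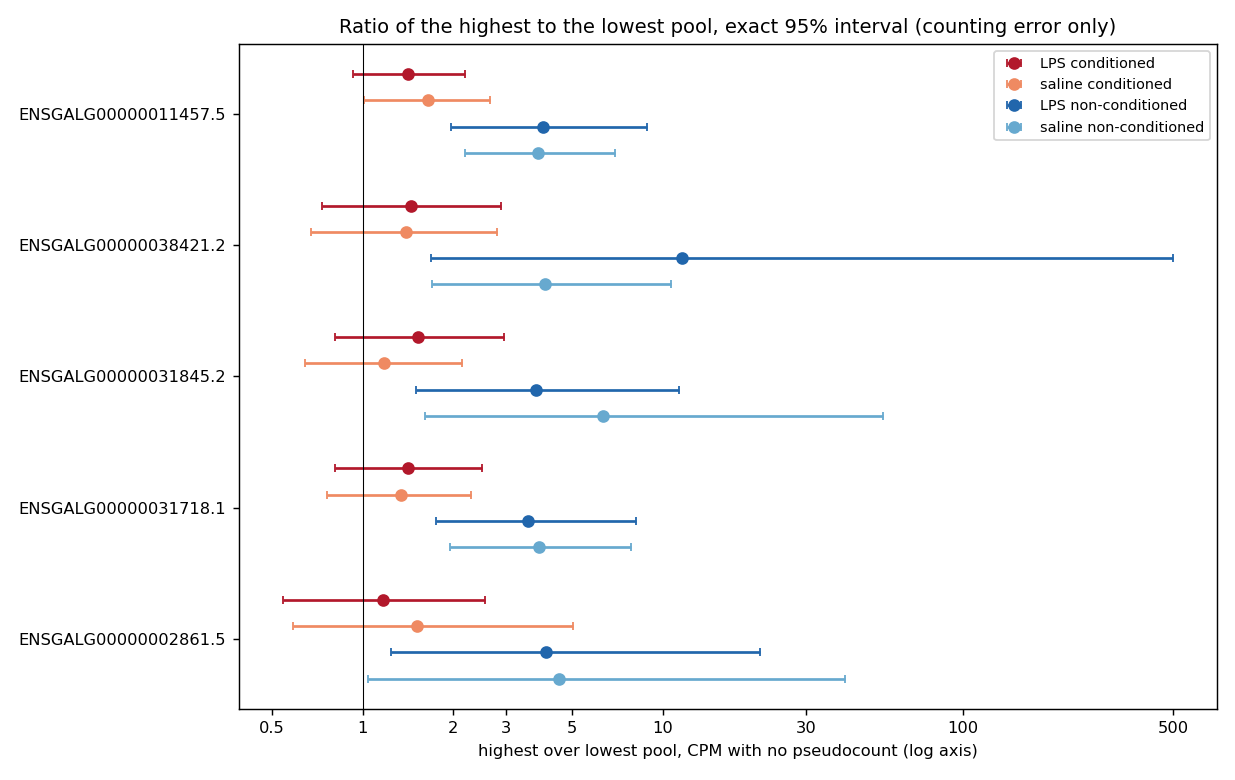
Ratio of the highest to the lowest pool in CPM with no pseudocount (log axis) for each gene and group, from top to bottom LPS conditioned, saline conditioned, LPS non-conditioned and saline non-conditioned, with exact 95% intervals for counting error. Non-conditioned ratios run from 3.56 to 11.6 and conditioned ones from 1.17 to 1.66, with intervals that overlap for each gene and injection.

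Whether the members were high and low in the same pools was not part of the choice. The highest and lowest pools were shared by some members and not by others, and no test of this was made. In the LPS non-conditioned group, pools 1, 2 and 3 were highest for 2, 2 and 1 members and lowest for 2, 0 and 3. In the saline non-conditioned group they were highest for 3, 1 and 1 members and lowest for 0, 2 and 3. Of the 10 pairs of members, 1 had both the same highest and the same lowest pool in the LPS and 1 in the saline non-conditioned group, and 0 did so in both. Pool 3 was the lowest for 3 of the 5 members in each of these groups. Summed over the 5 genes, the level was 273, 275 and 261 CPM in LPS conditioned pools 1 to 3 and 246, 318 and 249 CPM in the saline conditioned pools. The sums were 261, 301 and 146 CPM in the LPS non-conditioned and 380, 238 and 174 CPM in the saline non-conditioned pools, with pool 3 lowest in both. The highest sum exceeded the lowest 1.05 and 1.29 times in the conditioned groups (LPS, then saline) and 2.05 and 2.18 times in the non-conditioned groups. Each single member had a ratio of 3.56 or more in the non-conditioned groups, likewise with no added CPM. The narrow conditioned sums were built into the choice, which held each member's spread low in those groups. Wider non-conditioned sums were also favoured by it, since each member had to spread widely there.

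The saline non-conditioned group also had the widest spread over all eligible genes. A ratio of 3 or more was found in 0.821% of the 3899 eligible genes in the LPS conditioned, 1.69% in the saline conditioned, 2.28% in the LPS non-conditioned and 7.49% in the saline non-conditioned group. A ratio under 2 was found in 93.6%, 90.5%, 85.8% and 75.3% of them in the same order. Library depth also differed between the groups, with the shallowest library in the saline non-conditioned and the deepest in the saline conditioned group. The part of depth in these shares was not tested. Saline non-conditioned pool 3, the deepest of its group at 510210 counts, had counts in 8329 genes, against 8694 in pool 1 at 315422. Pool 2, at 189180, had counts in 7698. Leaving out pool 3 took the group's share with a ratio of 3 or more from 7.49% to 2.31%, against 3.9% without pool 1 and 4.26% without pool 2. Part of each fall is built in, since a ratio over 2 pools cannot exceed that over 3. The part of pool 3 in the spread of this group was not tested. Among the 292 genes with a ratio of 3 or more in the saline non-conditioned group, pool 1 was the highest for 59.6% and pool 3 the lowest for 62.0%, which is also where 3 of the 5 members had their highest and 3 their lowest value. Among the 89 such genes of the LPS non-conditioned group, pool 3 was lowest for 49.4% and pool 1 for 38.2%. The members' low pools there, pool 3 for 3 genes and pool 1 for 2, were those same pools.

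**Figure D3:**
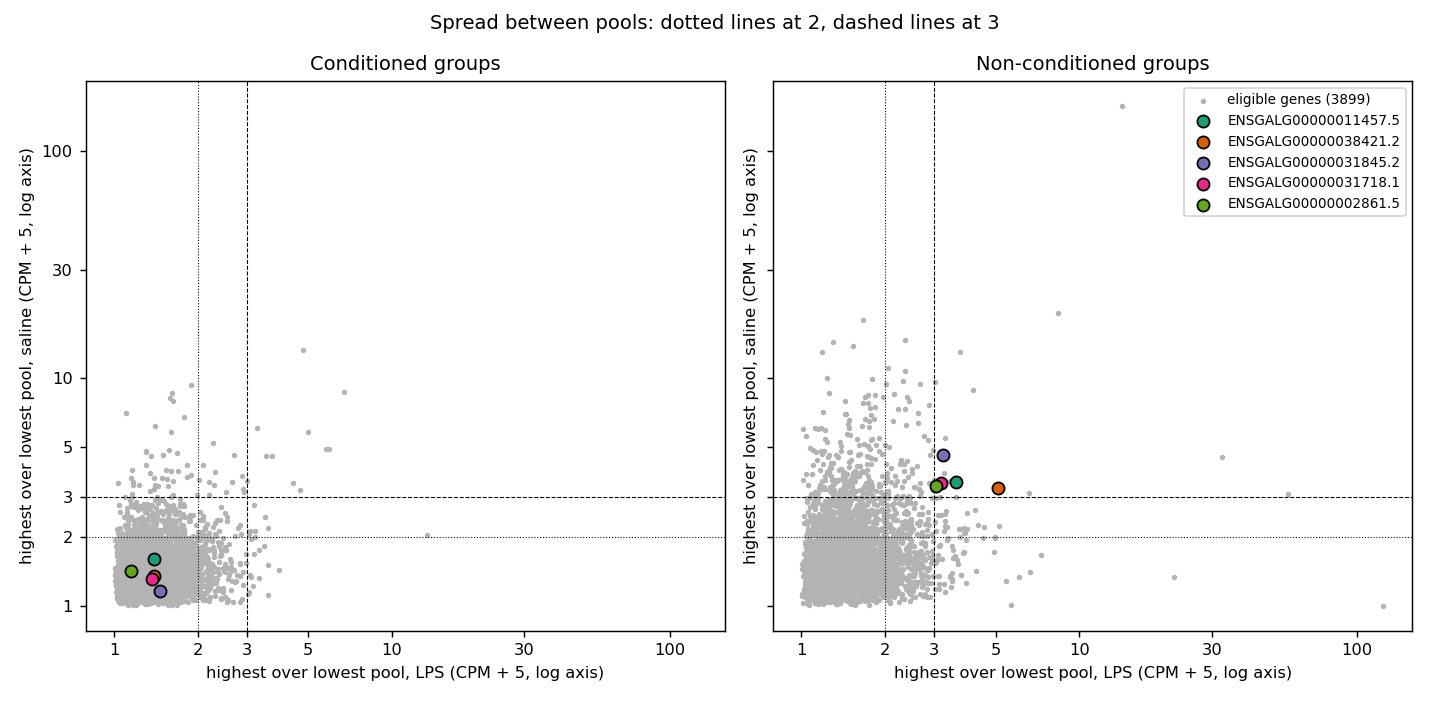
Ratio of the highest to the lowest pool, (CPM + 5) on log axes, with LPS on the horizontal and saline on the vertical axis, for 3899 eligible genes (grey) and the 5 members (coloured). In the conditioned groups (left) the members lie within the cloud, under 2 on both axes, and in the non-conditioned groups (right) above 3 on both axes, which the choice of genes required.

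Meeting the limit in both injections was rare on either side. A ratio of 3 or more in both groups was found in 11 genes, or 0.282% of eligible genes, with conditioning and in 18 genes, or 0.462%, without it. The 18 are 20.2% of the 89 genes past the limit with LPS and 6.16% of the 292 with saline. With conditioning, the 11 are 34.4% of 32 and 16.7% of 66. A ratio under 2 in both groups was far commoner, in 85.7% of eligible genes with conditioning and 66.3% without. All 4 ratio criteria together were met by 9 genes, or 0.231%, and the same criteria with conditioned and non-conditioned groups exchanged by 4 genes, or 0.103%. The limits on LPS and conditioning by themselves were met by 86.2% of eligible genes, yet they left 5 of the 9 (0.128% of eligible genes). The same limits with the groups exchanged left 0 of the 4. The share of eligible genes that met those exchanged limits by themselves was not computed. Counts of 9 and 4, or of 5 and 0, are small, and their difference was not tested.

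Of the 4 genes that met the ratio criteria and were left out by the LPS limits, 3 exceeded the limit of 0.5 in conditioned chicks and 2 the limit of 0.8 in non-conditioned chicks, with 1 gene past both. The nearest to joining the members had an LPS over saline log2 ratio of -0.504 with conditioning and -0.01 without it, and ratios between pools of 1.10 and 1.91 in the conditioned groups (LPS, then saline) and 3.42 and 3.55 in the non-conditioned groups. The gene past both limits averaged 152 and 45 CPM with conditioning (LPS, then saline) and 125 and 42.5 CPM without it. Genes that missed a single ratio limit were much more numerous, with 135 that failed only in the LPS non-conditioned and 32 that failed only in the saline non-conditioned group. The nearest of these had ratios of 2.94 and 2.99, against 3.05 for the member just inside the limit. In the conditioned groups the largest ratio of a member was 1.61, inside the limit of 2. A ratio of 2 or more in the saline conditioned group alone left out 2 genes, the nearer at 4.15. A further 42 genes met every criterion other than the minimum of 150 counts. With no minimum other than 1 count, 47 of 10767 genes met the criteria, against 5 of 3899 with the minimum.

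Within each group, a wide spread was found in a larger share of genes with few counts than of genes with many. Among the 2620 eligible genes with under 600 counts, which include all 5 members, a ratio of 3 or more was found in 0.954% in the LPS conditioned, 2.06% in the saline conditioned, 3.17% in the LPS non-conditioned and 10.2% in the saline non-conditioned group. Among the 1279 genes with 600 counts or more the shares were 0.547%, 0.938%, 0.469% and 1.95%. In both conditioned groups at once, the limit was passed by 7 genes with under 600 counts (0.267%) and by 4 with 600 or more (0.313%), so the share was not larger among genes with few counts. In both non-conditioned groups at once it was passed by 17 (0.649%) and by 1 (0.0782%). Among genes with under 600 counts, each of these shares was thus larger without conditioning than with it. Among genes with 600 or more, the share without conditioning was larger with saline, but smaller with LPS and in both groups at once. These differences were not tested. The 4 genes of the exchanged ratio pattern held 245, 367, 1320 and 3456 counts, so 2 of them were more abundant than any member.

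**Figure D4:**
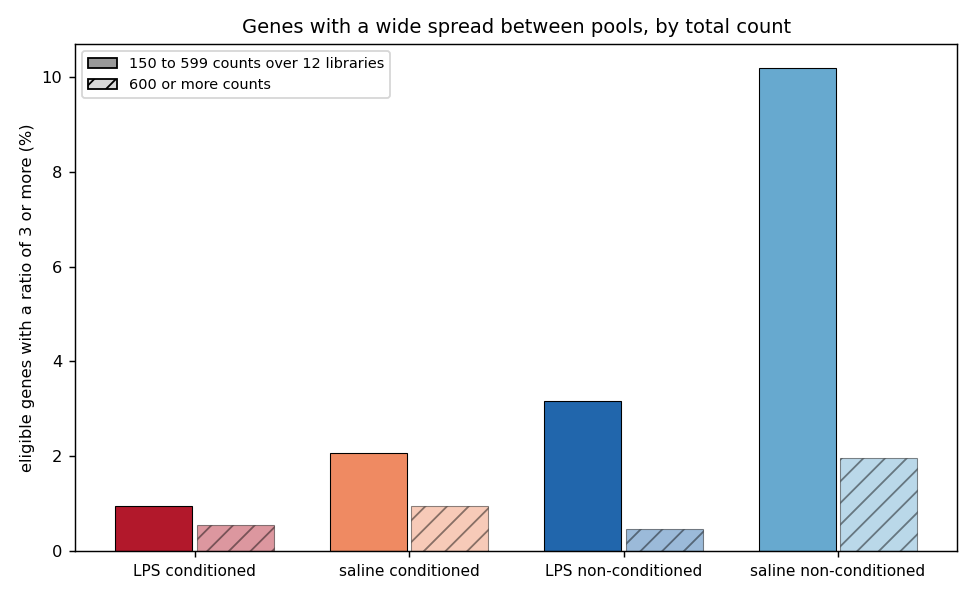
Percentage of eligible genes with a ratio of 3 or more between pools, by group (left to right LPS conditioned, saline conditioned, LPS non-conditioned, saline non-conditioned) and by total count over 12 libraries. Solid bars are genes with under 600 counts and hatched bars genes with 600 or more; the tallest bar is 10.2% in the saline non-conditioned group, against 1.95% for its genes with more counts.

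Group means of the members were held close by the limits of the choice. The LPS over saline log2 ratio (with 5 CPM added) ran from -0.42 to 0.37 with conditioning and from -0.64 to 0.20 without it. The conditioned over non-conditioned log2 ratio ran from -0.14 to 0.65 with LPS and from -0.32 to 0.31 with saline. In a fit over all 5170 genes that passed a filter on low counts (edgeR's quasi-likelihood test at an adjusted p under 0.05, by Benjamini-Hochberg), all 5 members were tested and 0 were called in any of 5 comparisons. The share of all tested genes called was 0.174% for LPS with conditioning, 0.542% for LPS without it, and 0% for conditioning with LPS, for conditioning with saline and for the interaction of both treatments. At an unadjusted p under 0.05 in that edgeR test, 0 of the 5 members stood in each comparison. Of all 5170 genes, 406 did for LPS with conditioning and 482 for LPS without it, and 340, 256 and 372 in the 3 comparisons without calls. DESeq2 called 0 members in each comparison and 1, 0 and 0 of all genes in those 3. These zeros over all genes depended on the fit. With no filter other than 1 count, edgeR called 64 genes for conditioning with LPS, 8 for conditioning with saline and 35 for the interaction. For conditioning with LPS it called 13 in a fit of the compared libraries alone and 16 without saline non-conditioned pool 3, and 0 members in each of these fits. The choice had used these contrasts, so nothing is read from the members' count.

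The choice depended on the scale of the values and on single libraries. Scaling by TMM factors (trimmed mean of M-values, 0.864 to 1.10 over the libraries) lowered the ratio in the saline non-conditioned group to 2.79 for ENSGALG00000011457.5, 2.70 for ENSGALG00000038421.2 and 2.94 for ENSGALG00000031718.1. Of the 5 members, 2 kept their place under that scaling, ENSGALG00000031845.2 and ENSGALG00000002861.5, and 1 other gene joined them. With LPS non-conditioned pool 1 left out, 1 member was left, as it was without pool 3 of that group, and without pool 2 there were 2. Each of the 3 saline non-conditioned pools, when left out, left 2 members. Without LPS conditioned pool 2, 4 of the 5 were kept, and without any other single conditioned pool all 5 were. Much of this difference is built in, since leaving out a pool cannot raise a ratio. A conditioned ratio under 2 therefore stays under 2, while a non-conditioned ratio can only stay or fall. ENSGALG00000031845.2 kept its place in 9 of the 12 fits without a library, the highest number, and no member kept it in all 12.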

How the data were processed

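Per the labels' protocols, 15 ng of RNA from each pool entered bulk MARS-seq, which reads the 3′ ends of mRNA, with single reads of 100 bp and about 25 M reads per sample. Tools listed by the submitters' processing notes are STAR, HTSeq, cutadapt and DESeq2, with the galGal5 build. The annotation release, the strand setting and any use of molecular identifiers are not given there, so reads of overlapping genes, antisense partners or near-identical copies may be shared. Raw counts per gene were deposited by the authors for 11207 genes, of which 340 had no count, and totals were 0.757% to 3.85% of the stated reads. The deposited normalized signal is, per the file headers, a normalized count, equal to the raw count times a library factor of 1.13 to 6.25. It served as an alternative scaling.

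CPM, ratios and intervals were computed in Python 3.11.15 with pandas 2.3.3 and scipy 1.17.1. Intervals are exact (Clopper-Pearson for ratios, Poisson for levels) at 95% and cover counting error only, not variation between pools. The counts may be reads rather than molecules, which the intervals do not take into account. A floor of 3 counts is 3.11 to 15.9 CPM. Tests across genes used edgeR 4.0.16 in R 4.3.3 on raw counts of all 12 libraries (filterByExpr with a minimum of 10, TMM, 1 mean per group, no covariate), with DESeq2 1.42.0 as an alternative, and were checked on data with known changes. The members and lists were chosen with earlier results of these data known, and the planned gene lists and cell type markers could not be applied without symbols. The rule for naming took the 2 members of widest spread among those higher and among those lower after conditioning, where there was 1. Replicates are separate pools as far as the labels say. P-values compare group means against the spread between these pools, and none of them tests that spread. Samples were grouped by their labels, and all value columns were used.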

Additional observations from a re-analysis of the deposited data

How the results depend on the processing

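Alternatives to the ratio limits and the bound of an interval were chosen after seeing the data. The choice gave 5 members in the report. It gave 1 with a pseudocount of 10 CPM, 3 with CPM scaled by TMM factors, 0 with 600 or more counts, 47 with no minimum other than 1 count, 19 with a ratio of 2.5 in place of 3 and 0 with a lower bound of the interval at or above 2. Leaving out a library gave 1 to 6. The exchanged pattern, 0 in the report, gave 1 with a pseudocount of 1 CPM, TMM factors, the authors' normalized values or no minimum, 5 with a ratio of 2.5, and 0 to 2 with a library left out. The authors' normalized values gave 5 members, 3 of them shared.

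The share of eligible genes with a ratio of 3 or more moved with the pseudocount and the minimum. It is given for the LPS conditioned, saline conditioned, LPS non-conditioned and saline non-conditioned groups. At 1 CPM it was 1.59%, 2.64%, 3.85% and 10.7%, and at 10 CPM 0.385%, 1.08%, 1.28% and 4.69%. With 600 or more counts it was 0.547%, 0.938%, 0.469% and 1.95%, and with no minimum 2.55%, 4.24%, 6.62% and 13.4%. Without a library of the group it was 0.180% to 0.564%, 0.692% to 1.03%, 0.410% to 1.49% and 2.31% to 4.26%. Part of that fall is built in, since a ratio over 2 pools cannot exceed that over 3. The cause of the other moves was not tested.

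Members called in edgeR or DESeq2 were 0 under all 84 alternatives, and 0 in each comparison with the replicate block. For LPS without conditioning, only 4 members were tested in the fit of the compared libraries alone. The choice had limited these differences of means, so nothing is read from the members' zeros. Calls over all genes did move. For conditioning with LPS, 0 in the report, they were 0 to 16 without a library, 2 with the replicate block, 13 with the compared libraries alone and 64 with no filter other than 1 count. For the interaction they were 0 to 5 without a library and 35 with no filter, and for conditioning with saline 0 whichever library was left out and 8 with no filter. For LPS with conditioning, 9 in the report, they were 2 to 22 without a library, 54 with the compared libraries alone and 65 with no filter. For LPS without conditioning, 28 in the report, they were 8 to 65, 11 and 80. Same-numbered pools correlated at -0.11 to 0.13 in their deviations from group means over 18 pairs, over 0.1 in 2. The range for pools of different numbers is not given, so these values do not settle whether the numbers pair the samples. The main fit did not take them to do so. Of 240 values of the members' ratios and means under alternatives, 232 moved by less than the counting interval or the SD, and 8 ratios moved by more, each without a non-conditioned library. These intervals were wide, so a ratio could fall below 3 without moving by more than its interval. Under TMM factors all 20 ratios stayed within their intervals, yet only 2 of the 5 members were kept.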
